A study of Mus musculus domesticus and Mus musculus domesticus x Mus musculus castaneus and Mus musculus castaneus with 27 samples.

Results

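The receptor subunits for glutamate, gamma-aminobutyric acid (GABA) and glycine were followed in mouse pluripotent stem cells (PSC) and in motor neurons (MN) made from such cells in culture. Members were the protein-coding genes of the count table whose symbols match the name patterns of ionotropic glutamate receptors (Gria, Grik, Grin, Grid), metabotropic glutamate receptors (Grm), GABAA (Gabr) and GABAB (Gabbr) receptors, and glycine receptors (Glra, Glrb). Of 53 annotated genes that match, 45 were analysed, among 27071 identifiers in the table, and the other 8 were not analysed here. Of the 45, Grid2ip matches by its name but encodes no receptor subunit, so the other 44 are subunits. By class, the genes analysed were 4 AMPA, 4 kainate, 6 NMDA, 1 delta, 7 metabotropic glutamate, 15 GABAA, 2 GABAB and 5 glycine receptor genes. Every count, sum and share given for a class covers these genes only.

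Polyadenylated RNA was sequenced from lines of C57BL/6 (BL6; the design text names C57BL/6J), CAST/EiJ (CAST) and 129S6/SvEv (129) mice and from F1 hybrids of CAST and 129, which the labels write CAS129 and 129CAS. There were 6 PSC libraries, 2 each of BL6, CAST and CAS129. The 14 MN libraries were 7 of BL6, 3 of CAS129, 2 of 129, and 1 each of CAST and 129CAS. The labels name no treatment, time, age or batch for these 20 libraries and do not say whether a line is 1 clone or whether replicates are separate cultures. The p-values therefore refer to the spread between these libraries, which may be technical. RNA of PSC and of MN was extracted with different kits, so the effects of kit and of cell type cannot be told apart.

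Libraries held 4.5 to 13.62 M counts in PSC and 5.61 to 44.57 M in MN, the 129 and 129CAS MN libraries being the deepest at 25.69 to 44.57 M and the CAS129 MN libraries the shallowest at 5.61 to 6.29 M. Levels are counts scaled to a common library size of 1 M (CPM), adjusted by TMM over the 20 libraries, a method that removes differences in RNA composition. The labelled cell types were checked against marker genes. A list of 8 neuron markers rose in MN for 8 of 8 genes and 8 motor neuron markers for 7 of 8, while 7 of 7 pluripotency markers fell, and 7 of 8 spinal interneuron markers and 9 of 9 mesenchyme and fibroblast markers also rose. Of 10 astrocyte and oligodendrocyte lineage markers 4 rose and 4 fell, and of 6 neural progenitor markers 1 rose and 3 fell. Of all genes tested over the BL6, CAST and CAS129 lines, 36.1% rose and 38.5% fell. The mesenchyme markers summed to 6497 to 33895 CPM in MN, so these libraries hold RNA of genes outside neurons in large amounts, and its part in the results was not tested. The 6 hybrid libraries stood apart in another way: of 7765 genes with at least 5 CPM in each of the 14 other libraries, 344 (4.43%) were at 0 counts in all 6 hybrid libraries. Over MN alone it was 419 of 9631 genes (4.35%), and none of the 22 receptor genes in that set, but Map2, a neuron marker, was among the genes at 0. Partial losses of the same kind were not tested.

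AMPA, kainate and NMDA receptors are cation channels, each built from 4 subunits and opened by glutamate. AMPA receptors carry most fast excitation of motor neurons, NMDA receptors need the Grin1 subunit and pass calcium, and kainate receptors combine Grik1 to Grik3 with the high-affinity subunits Grik4 and Grik5. Metabotropic glutamate and GABAB receptors signal through G proteins. GABAA and glycine receptors are chloride channels that inhibit mature motor neurons, and the glycine receptor beta subunit Glrb anchors the channel at synapses through gephyrin.

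The site that sets the calcium permeability of AMPA receptors is a single codon in the channel pore. Its surroundings are printed from the GENCODE M21 transcripts on GRCm38, 5′ to 3′ along the coding strand, since the share of Gria2 among the AMPA subunits is a result below. The capitals mark the codon, which the genome gives as glutamine in all 4 genes, and which is edited to arginine in the RNA of Gria2.
Gria1: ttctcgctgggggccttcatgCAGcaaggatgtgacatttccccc
Gria2: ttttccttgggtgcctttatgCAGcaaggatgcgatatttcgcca
Gria3: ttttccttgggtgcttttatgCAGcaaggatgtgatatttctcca
Gria4: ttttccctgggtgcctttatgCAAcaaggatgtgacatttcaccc
Each stretch of 45 bases is coding sequence within 1 exon: exon 11 of 16 for Gria1 (chr11:57243073-57243117, plus strand), Gria2 (chr3:80706890-80706934, minus strand) and Gria3 (chrX:41610244-41610288, plus strand), and exon 12 of 17 for Gria4 (chr9:4464116-4464160, minus strand). Compared with Gria2, Gria3 differs at 3 of these bases, Gria4 at 6 and Gria1 at 9. Gene counts carry no information on editing at this codon.

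In PSC most receptor genes were near or at 0. Of the 45 genes, 16 reached a mean of 1 CPM over the 6 PSC libraries and 4 reached 10 CPM, against 36 and 22 over the 14 MN libraries. The exceptions in PSC were Gabbr1, the ligand-binding subunit of the GABAB receptor (mean 114 CPM over 6 libraries), the kainate subunits Grik5 (28.3 CPM) and Grik3 (20.8 CPM), the obligatory NMDA subunit Grin1 (10.1 CPM), and the NMDA subunit Grin3b (7.61 CPM). The value of Grin3b is uncertain, because 32.1% of its exonic bases overlap Tmem259, whose group means in PSC were 112 to 175 CPM. Summed over the 45 genes, the group means were 294 CPM in BL6 PSC, 165 CPM in CAST PSC and 196 CPM in CAS129 PSC, and 1207 CPM in BL6 MN, 2090.3 CPM in CAST MN, 1508 CPM in 129 MN, 1741 CPM in 129CAS MN and 397 CPM in CAS129 MN. The sum in CAS129 MN was thus the lowest of the MN groups, and it still lay above each PSC group.

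**Figure D1:**
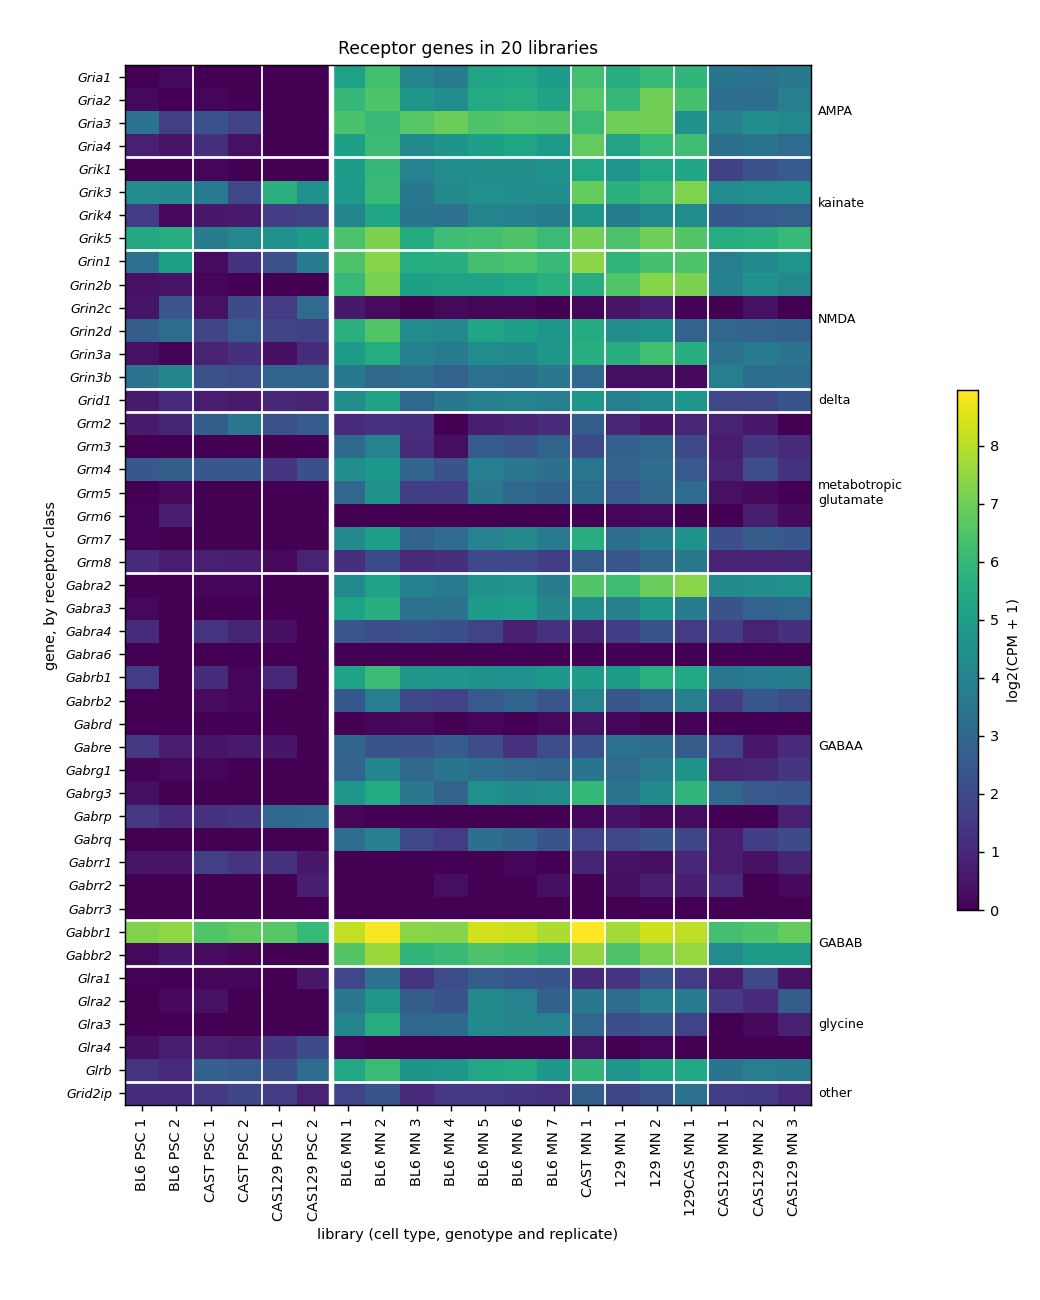
Level of the 45 receptor genes (rows, grouped by receptor class) in the 20 libraries (columns, grouped by cell type and genotype), as log2(CPM + 1) in colour. PSC columns are dark for nearly all genes except Gabbr1, Grik5 and Grik3, and the 3 CAS129 MN columns are darker than the other MN columns.

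Receptor genes rose together from PSC to MN. Averaged over the BL6, CAST and CAS129 lines, 30 of the 40 testable genes were higher in MN and 4 were lower (edgeR quasi-likelihood test, Benjamini-Hochberg adjusted p under 0.05 over all genes), where of all 15596 genes tested 36.1% were higher and 38.5% lower, 74.6% in all. The median log2 fold change was 4.10 over the members and -0.05 over all genes. In 21 of the 40 genes every one of the 14 MN libraries lay above all 6 PSC libraries, where 19.3% of all genes did so, and in 1, Gabrp, every MN library lay below, where 11.2% did. Genes that passed the filter on low counts mostly did so through MN, where they are high, and 5 members with few counts everywhere (Gabra6, Gabrd, Gabrr2, Gabrr3 and Grm6) were not tested. In these bulk samples a larger share of cells of a type and more RNA per cell cannot be told apart.

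All 4 AMPA subunits rose. Gria1 stood at 0 to 0.149 CPM in the 6 PSC libraries, and in MN at 12.4, 33.8 and 75.7 CPM in BL6 (lowest, median and highest of 7), 76.0 CPM in CAST, 49.2 and 66.7 CPM in 129, 58.2 CPM in 129CAS, and 10.1, 9.04 and 11.4 CPM in CAS129. PSC and MN libraries did not overlap, and the log2 fold change over the lines was 9.46 (SE 0.69, adjusted p = 2.4e-09). Gria2, the subunit edited at the codon shown above, stood at 0 to 0.145 CPM in PSC and at 20.1, 44.0 and 89.4 CPM (lowest, median and highest) in BL6 MN, 96.8 CPM in CAST, and 61.3 and 129 CPM in 129 MN. It rose by 9.41 (SE 0.60, adjusted p = 5.7e-10) and Gria4 by 6.25 (SE 0.45). Gria3 rose by 4.23 (SE 0.41), from 2.23 and 9.67 CPM in BL6 PSC and 3.80 and 2.58 CPM in CAST PSC; it was at 0 counts in CAS129 PSC, where 3 counts over the group correspond to 0.241 CPM.

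Of the kainate receptor genes, 3 of 4 rose. Grik1, a pore-forming low-affinity subunit, changed from at most 0.106 CPM in PSC to 14.6, 20.7 and 61.8 CPM (lowest, median and highest) in BL6 MN, a log2 fold change of 9.54 (SE 0.66, adjusted p = 1.4e-09). Grik4 rose by 3.06 (SE 0.65) and Grik5 by 1.18 (SE 0.30, adjusted p = 0.0019). Grik3 did not pass over the lines: it was already at 18.4 CPM in BL6 PSC and 36.5 CPM in CAS129 PSC, against 26.3 CPM in BL6 MN and 20.8 CPM in CAS129 MN. Within CAST it did pass, at 2.80 and 12.1 CPM in PSC and 114 CPM in the single MN library (log2 3.77, SE 0.79, adjusted p = 0.00065).

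The NMDA subunits divided. Grin2b, the subunit of immature receptors, rose by 7.62 on the log2 scale (SE 0.56, adjusted p = 2.6e-09), Grin3a by 5.13 (SE 0.53), Grin1 by 2.30 (SE 0.70, adjusted p = 0.0070) and Grin2d by 2.19 (SE 0.42). Grin2c, which in the brain is best known from the cerebellum, fell by 4.40 on the log2 scale (SE 0.73), from 0.317 to 7.68 CPM in PSC to at most 0.693 CPM in MN. These levels are low and the libraries overlapped. Grin1 was present before differentiation, at 9.52 and 33.5 CPM in the 2 BL6 PSC libraries, against 0.211 and 1.46 CPM in CAST PSC. Grin3b did not pass over the lines and is described with the genotypes. The delta receptor gene Grid1 rose by 3.56 (SE 0.55).

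Among the metabotropic glutamate receptors 4 of 6 testable genes rose. Grm7, a receptor of presynaptic endings, rose most clearly, by 9.19 on the log2 scale (SE 0.67, adjusted p = 2.7e-09), to 6.21, 14.9 and 32.0 CPM (lowest, median and highest) in BL6 MN. Grm5 rose by 6.84 (SE 0.95), Grm3 by 7.93 (SE 1.32) and Grm8 by 1.28 (SE 0.43, adjusted p = 0.012). Without the CAST MN library the call on Grm8 was lost. Grm2 and Grm4 did not pass.

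Of 11 testable GABAA genes 8 rose and 2 fell. Gabra2, an alpha subunit that binds benzodiazepines, was at 0 counts in BL6 and CAS129 PSC and at 0.106 and 0.112 CPM in CAST PSC, and rose by 9.61 on the log2 scale (SE 0.47, adjusted p = 7.5e-11). Gabra3, another alpha subunit, rose by 8.47 (SE 0.72). The 2 that fell are best known from outside the spinal cord: Gabrp, a subunit of epithelia and glands, fell by 5.18 (SE 0.59, adjusted p = 4.2e-07) and Gabrr1, a subunit of the retina, by 1.97 (SE 0.56). Gabrp stood at 7.12 and 7.68 CPM in CAS129 PSC and at 1.12 to 1.82 CPM in the other PSC libraries, and at 0 counts in 6 of 7 BL6 MN libraries.

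Many GABAA genes lie in clusters, and levels per length in BL6 MN differed within a cluster. On chromosome 5, Gabrg1, Gabra2, Gabra4 and Gabrb1 lie within 1.4 Mb, with means of 1.11, 2.63, 0.463 and 2.34 CPM per kb of exon. Gabra2 (SD 1.07 CPM per kb, n = 7) and Gabrb1 (SD 1.19 CPM per kb) did not differ beyond their spread. On the X chromosome Gabre, Gabra3 and Gabrq lie within 0.59 Mb and stood at 0.841, 6.60 and 1.24 CPM per kb.

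Of the GABAB genes, Gabbr2, which couples the receptor to G proteins and brings it to the cell surface, rose from at most 0.447 CPM in PSC to 57.2, 80.3 and 193 CPM (lowest, median and highest) in BL6 MN, a log2 fold change of 8.71 (SE 0.48, adjusted p = 1.7e-10). Gabbr1 stood at 154 and 172 CPM in BL6 PSC and at 161, 281 and 472 CPM in BL6 MN, so the groups overlapped, and its rise over the lines was 0.66 (SE 0.29, adjusted p = 0.0475). That call was lost on leaving out any 1 of 8 libraries: BL6 PSC replicate 2, BL6 MN replicates 2 and 5, either CAST PSC replicate, the CAST MN library, CAS129 MN replicate 3 or CAS129 PSC replicate 2. The partners of the GABAB dimer therefore differed in where they were found: Gabbr1 in PSC and MN, Gabbr2 almost only in MN.

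Of 5 glycine receptor genes 4 rose. Glra3 was at 0 counts in all 6 PSC libraries, where the floor of 3 counts over the group is 0.0517 CPM, and its mean of 10.3 CPM over 14 MN libraries was at least 200.2-fold higher. This mean pools 18.1 CPM in BL6 MN with 0.300 CPM in CAS129 MN. In CAS129 PSC the floor is 0.241 CPM, so that fold does not hold within CAS129. Glra2, the alpha subunit of immature receptors, rose by a log2 of 6.47 (SE 0.80), Glra1, the adult alpha subunit, by 3.96 (SE 0.87) to 1.62, 4.03 and 9.31 CPM (lowest, median and highest) in BL6 MN, and Glrb by 2.75 (SE 0.55, adjusted p = 0.00024). Glra4 fell by 3.93 (SE 0.70, adjusted p = 7e-05) from 0.291 to 3.24 CPM in PSC, levels too low for a precise estimate.

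By genotype, 29 of 40 genes were higher and 5 lower in BL6 MN than in BL6 PSC (all genes 36% and 34.2%, 70.2% in all), 30 higher and 1 lower in CAST (30.3% and 25.7%, 56% in all), and 18 higher and 4 lower in CAS129 (30.4% and 23.9%, 54.4% in all). The difference of the change, CAS129 minus BL6, was itself tested and passed for 3 of 40 genes, 1 in the positive and 2 in the negative direction, where of all genes 13.7% and 4.53% did, 18.2% in all. It was -3.80 for Glrb (SE 0.67, adjusted p = 0.0011): Glrb stood at 1.32 CPM in BL6 PSC and 5.75 CPM in CAS129 PSC, and at 38.3 and 11.8 CPM in the corresponding MN. The other two rest on low or absent counts in PSC: Gria3 at 6.96 (SE 1.77, at 0 counts in CAS129 PSC) and Grm2 at -3.58 (SE 1.2). Without CAS129 PSC replicate 2, 1 gene passed.

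To compare genes with each other, CPM were divided by the length of the merged exons in kb. Over the 14 MN libraries Gabbr1 had the highest level per length, 32.4 CPM per kb, followed by Grik5 at 16.4 and Gabbr2 at 14.1 CPM per kb among the genes analysed. Gria3 (7.58), Grin1 (7.54), Glrb (7.16), Gria4 (6.29), Gria1 (6.21) and Gabra2 (6.07 CPM per kb) came next, and Grik3, Gabra3, Grin2d, Grik1 and Gria2 stood between 5.00 and 3.31 CPM per kb. This order pools groups, and 7 of the 14 libraries are BL6. Gabbr1 was first in each MN group, but Gabbr2 stood above Grik5 in 129CAS (27.7 and 18.0 CPM per kb) and CAST (27.5 and 26.4 CPM per kb), Gabra2 stood above Grik5 in 129CAS at 21.6 CPM per kb, and in CAS129 Grin3b (3.02 CPM per kb) stood above Grin1 (1.92) and Gria3 (1.75 CPM per kb). The place of Grin3b is uncertain because of its overlap with Tmem259. Grik5 had an SD of 6.15 CPM per kb over the 14 libraries, and Gabbr2 an SD of 8.88 CPM per kb. These SDs pool the genotypes and are not the spread of a difference between genes measured in the same libraries. In CAS129 MN, Grik5 stood at 10.5 ± 2.08 and Gabbr2 at 3.78 ± 0.825 CPM per kb (SD, n = 3). Summed per class, BL6 MN held 49.6 ± 20.4 CPM per kb for GABAB, 25.8 ± 11.8 for kainate, 23.7 ± 6.09 for AMPA, 21.3 ± 10.2 for NMDA and 15.8 ± 8.12 for glycine receptors (SD, n = 7).

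Shares within a class compare the subunits of 1 receptor type and are given, for 4 classes, as percent of the sum in CPM per kb over the genes analysed. In BL6 MN, Gria3 made up 42.4% ± 14.8 (SD, n = 7) of the AMPA sum, Gria1 23.0% ± 7.83, Gria4 22.5% ± 4.3 and Gria2 12% ± 3.6. With no division by length Gria2 made up 21.2%. Grik5 held 63.5% ± 4.7 of the kainate sum. In the NMDA class Grin1 held 39.8% ± 3.3, Grin2d 26.4% ± 4.4, Grin3b 14.2% ± 4.5 and Grin2b 10.4% ± 2.1, and the order of Grin2d and Grin2b turns with the length used: with no division by length they held 18.0% and 26.2%. Among glycine receptor genes Glrb held 54.4% ± 7.0 and Glra2 22.5% ± 5.9.

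Some shares differed between the MN groups. Grik3 held 10.7% ± 1.8 of the kainate sum in BL6 MN and 38.4% in the single 129CAS MN library. Gria3 held 42.4% of the AMPA sum in BL6 MN and 7.91% in that 129CAS library. The Gria3 share had a wide SD within BL6 MN, as given above. Its CPM there ran from 66.4 in replicate 2, with the highest neuron marker sum (4488 CPM), to 122 in replicate 4, with the lowest (1497 CPM). The part of genotype in this share was not tested. Grin3b, whose counts are uncertain because another gene overlaps it, held 14.2% of the NMDA sum in BL6 MN, 0.42% ± 0.12 in 129 (n = 2), 0.228% in 129CAS and 40.4% ± 9.8 in CAS129 MN (n = 3), where Grin1 held 25.9% ± 8.0. Shares are descriptions without a test, and a rise of 1 share lowers the others.

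**Figure D2:**
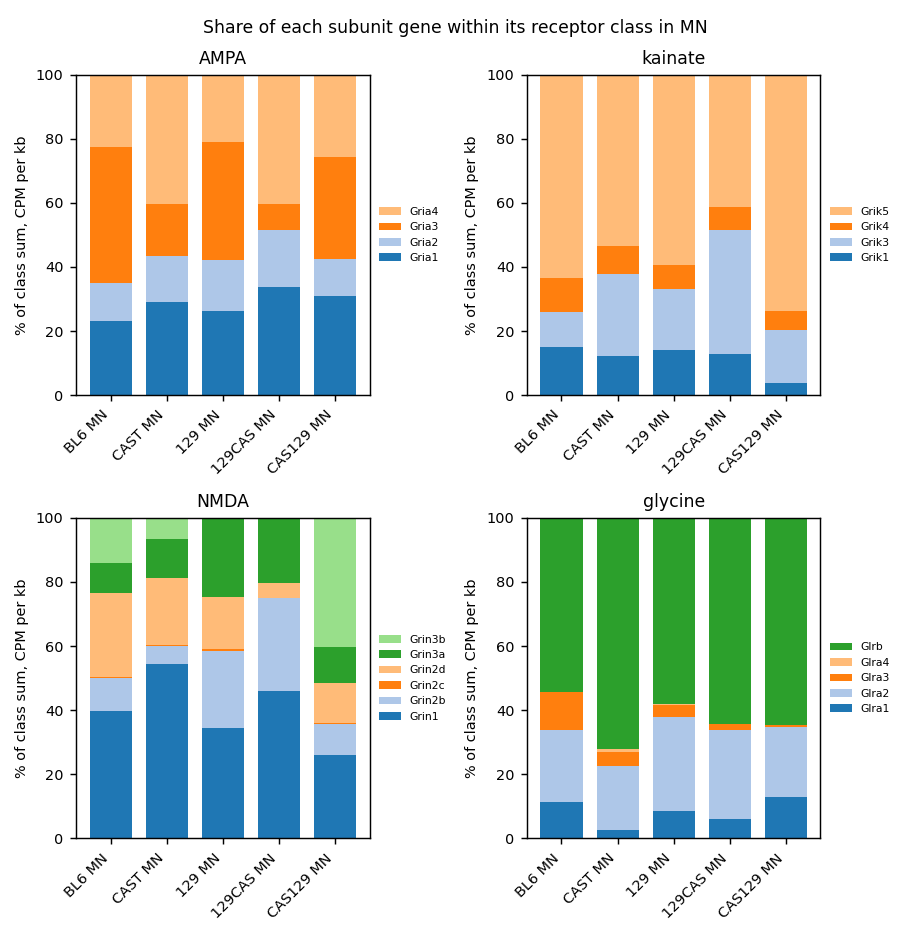
Mean share of each subunit gene in the CPM per kb summed over the analysed genes of its receptor class (AMPA, kainate, NMDA and glycine), in percent, in the 5 MN groups (BL6 n = 7, CAST n = 1, 129 n = 2, 129CAS n = 1, CAS129 n = 3). Gria3 takes 42.4% of the AMPA bar in BL6 and 7.91% in 129CAS, and Grik3 takes 10.7% of the kainate bar in BL6 and 38.4% in 129CAS.

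In CAS129 MN, with 3 libraries, most receptor genes were lower than in BL6 MN. Of 36 testable receptor genes 28 were lower in CAS129 MN and none was higher (all 14837 genes: 32.5% lower, 27% higher, 59.5% in all), with a median log2 fold change of -1.74 against -0.08 over all genes. At an unadjusted p under 0.05 edgeR also gave 0 members in the higher direction, and DESeq2 gave 0 higher and 28 lower. With CAS129 MN replicates 1 and 2 both left out, which keeps 1 library, most of the 28 calls were lost. In 22 of 36 genes all 3 CAS129 MN libraries lay below all 7 BL6 MN libraries, where 28% of all genes did, and in 0 above, where 22.8% did. All 4 AMPA genes were lower, with log2 fold changes from -1.76 (Gria1) to -2.38 (Gria3), both GABAB genes, Grid1, all 4 testable glycine receptor genes, 4 of 5 NMDA genes, 5 of 6 metabotropic genes, 6 of 9 GABAA genes and 2 of 4 kainate genes.

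The smallest p-values belonged to Gria3, Gabrg1, Glra3 and Grik1. Gria3 stood at 66.4, 91.5 and 122 CPM (lowest, median and highest) in BL6 MN and at 14.1, 20.4 and 17.2 CPM in CAS129 MN, a log2 fold change of -2.38 (SE 0.19, adjusted p = 2e-07). It also stood at 22.4 CPM in the 129CAS MN library, below the 67.8 CPM of CAST and the 129 and 130 CPM of 129 MN, so the low level was shared by all 4 hybrid MN libraries and by neither parent strain. Gabrg1, a gamma subunit, was lower by -2.88 (SE 0.42, adjusted p = 7.3e-05), Glra3 by -5.91 (SE 0.93, adjusted p = 0.00013) and Grik1 by -2.85 (SE 0.50, adjusted p = 0.00030). Glra3 stood at 7.01, 15.4 and 47.6 CPM in BL6 MN and at 0, 0.167 and 0.733 CPM in CAS129 MN.

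The 129CAS MN library lay below all 10 MN libraries of the inbred lines for 3 of 32 members with at least 1 CPM in each of these (Glra3, Gria3 and Grin2d), where 24.9% of all such genes did. Grin2d stood at 6.26 CPM in 129CAS and at 6.71, 6.03 and 5.87 CPM in CAS129 MN, against 17.6 CPM or more in the inbred lines. Whether counts of these genes were lost as for the genes at 0 in all hybrid libraries was not tested.

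Of the 8 genes that did not pass in CAS129, Gabra2 (log2 0.05, SE 0.31), Grin3b (0.22, SE 0.24), Grik3 (-0.32, SE 0.43) and Grid2ip (-0.23, SE 0.43) had estimates near 0, and Grik5 stood at -0.58 (SE 0.29, adjusted p = 0.10). Grm2, Gabra4 and Gabrb2 had estimates from -0.71 to -1.02.

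Neuron markers moved with the receptor genes. All 8 neuron markers were lower in CAS129 than in BL6 MN (all genes 32.5% lower and 27% higher). Without Map2, the other 7 summed to 1273 to 3735 CPM in BL6 MN and 539 to 691 CPM in CAS129 MN, and 6 of 8 motor neuron and 7 of 8 interneuron markers were lower too, while 6 of 7 pluripotency markers were higher in CAS129 MN, with sums of 397 to 1005 CPM against 44.3 to 116 CPM, and the neural progenitor sums were 1023 to 1075 CPM against 219 to 592 CPM. Of 9 astrocyte and oligodendrocyte lineage markers 3 were lower. The mesenchyme sums overlapped, at 22353 to 25850 CPM in CAS129 and 14838 to 33895 CPM in BL6 MN. Per 100 CPM of the 7 neuron markers, the 45 receptor genes summed to 57.9 CPM ± 2.51 in BL6 MN (SD, n = 7), 63.7 ± 0.875 in CAS129 MN (n = 3), 54.2 in CAST, 76.2 ± 0.302 in 129 (n = 2) and 76.7 in 129CAS MN. On this scale the 3 CAS129 MN libraries, at 63.0 to 64.7, lay above the 55.7 to 61.7 of BL6 MN. PSC stood higher still, at 96.3 ± 3.81 in BL6, 81.4 ± 1.60 in CAST and 250 ± 1.89 in CAS129 PSC (n = 2 each). The scale is therefore not a measure of receptor RNA per neuron. The parts of cell makeup and of genotype in the lower levels cannot be told apart.

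On the same scale single genes differed from the sum, in both directions. Gabra2 stood at 0.971 CPM ± 0.143 per 100 CPM of neuron markers in BL6 MN, 2.36 in CAST, 4.76 ± 0.334 in 129, 3.30 ± 0.0605 in CAS129 and 7.27 in 129CAS MN. Grik3 stood at 1.2 ± 0.299 in BL6 and 3.36 ± 0.221 in CAS129 MN, and Grik5 at 4.06 ± 0.703 and 8.69 ± 0.89. In CAS129 PSC, where these neuron markers summed to 78.3 CPM, Grik3 stood at 36.5 CPM and Grik5 at 26.0 CPM. The part of stem cell RNA in the CAS129 MN values was not tested. Others stayed lower in CAS129 MN: Glra3 stood at 0.791 ± 0.247 in BL6 and 0.0442 ± 0.0553 in CAS129 MN, Grm5 at 0.351 ± 0.162 and 0.029 ± 0.0304, Grik1 at 1.27 ± 0.276 and 0.582 ± 0.147, and Gabrg1 at 0.447 ± 0.179 and 0.183 ± 0.0487. Gria3, at 5.23 ± 2.62 and 2.77 ± 0.384, overlapped between the groups.

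**Figure D3:**
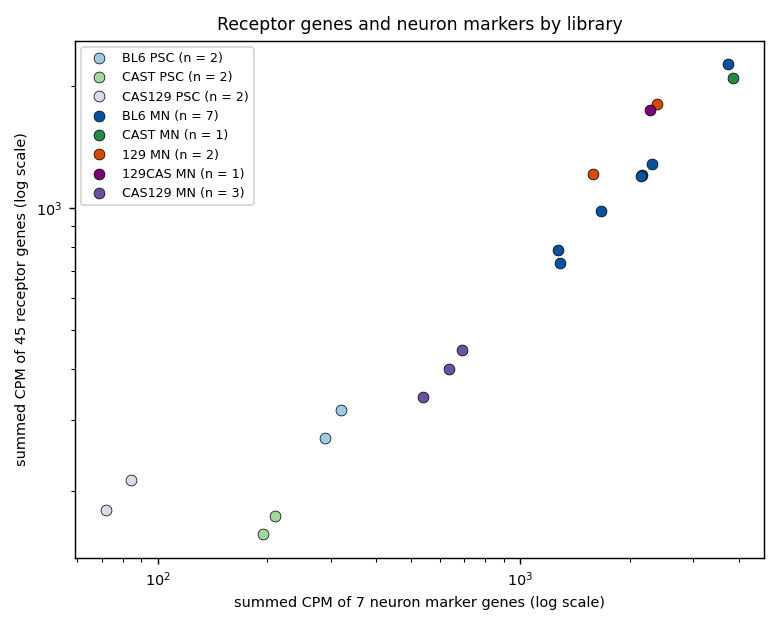
Summed CPM of the 45 receptor genes (vertical, log scale) against the summed CPM of 7 neuron markers without Map2 (horizontal, log scale), 1 point per library. The MN libraries follow a common band with 54.2 to 76.7 CPM of receptor genes per 100 CPM of markers, CAS129 MN at its lower end, while PSC lie to the lower left.

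The 129 and CAST lines were compared with BL6 in the same fit. In 129 MN 3 of 36 genes were higher and 2 lower (all genes 18.3% and 18.1%, 36.4% in all), and in the single CAST MN library, taken to vary like the other groups, 3 were higher and 0 lower (5.76% and 6.58%, 12.3% in all), with 0 lower also at an unadjusted p under 0.05 in edgeR and in DESeq2. BL6 MN replicate 2 weighed on both: without it 10 genes were higher and 2 lower in 129 (all genes 20.9% and 21.9%, 42.8% in all), and 17 were higher and 0 lower in CAST (12.9% and 12.8%, 25.8% in all). Without 129 MN replicate 2, 2 genes passed. Both 129 libraries lay above all 7 BL6 libraries for 5 of 36 genes (Gabra2, Gabre, Gria3, Grin3a and Grm8; all genes 23.8%) and below them for 2 (Glra3 and Grin3b; 18.3%). The neuron markers of 129 MN had 0 of 8 genes called against BL6, and those of CAST MN 1 of 8, higher.

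Gabra2 (ENSMUSG00000000560, GRCm38 chr5:70957597-71095849, minus strand) was called higher in both strains. It stood at 12.4, 18.3 and 35.4 CPM (lowest, median and highest) in BL6 MN, 71.7 and 119 CPM in 129, 91.2 CPM in CAST, 165 CPM in 129CAS, and 18.2, 20.8 and 22.6 CPM in CAS129 MN. The 129, CAST and 129CAS libraries all lay above the 7 BL6 libraries, and CAS129 lay within their range. The log2 fold change was 2.20 for 129 (SE 0.31, adjusted p = 0.000115) and 2.14 for CAST (SE 0.39, adjusted p = 0.00299), and both calls held under every alternative run for these comparisons. As background, the C57BL/6J strain is known for a variant near a splice site of Gabra2 that lowers its expression in brain. Whether the lines used here carry it was not tested.

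The neighbours of Gabra2 in the chromosome 5 cluster did not pass in either strain, with Gabrb1 at 32.3 CPM in BL6, 40.4 CPM in 129 and 29.3 CPM in CAST MN, and Gabrg1 at 8.70, 9.93 and 10.3 CPM.

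**Figure D4:**
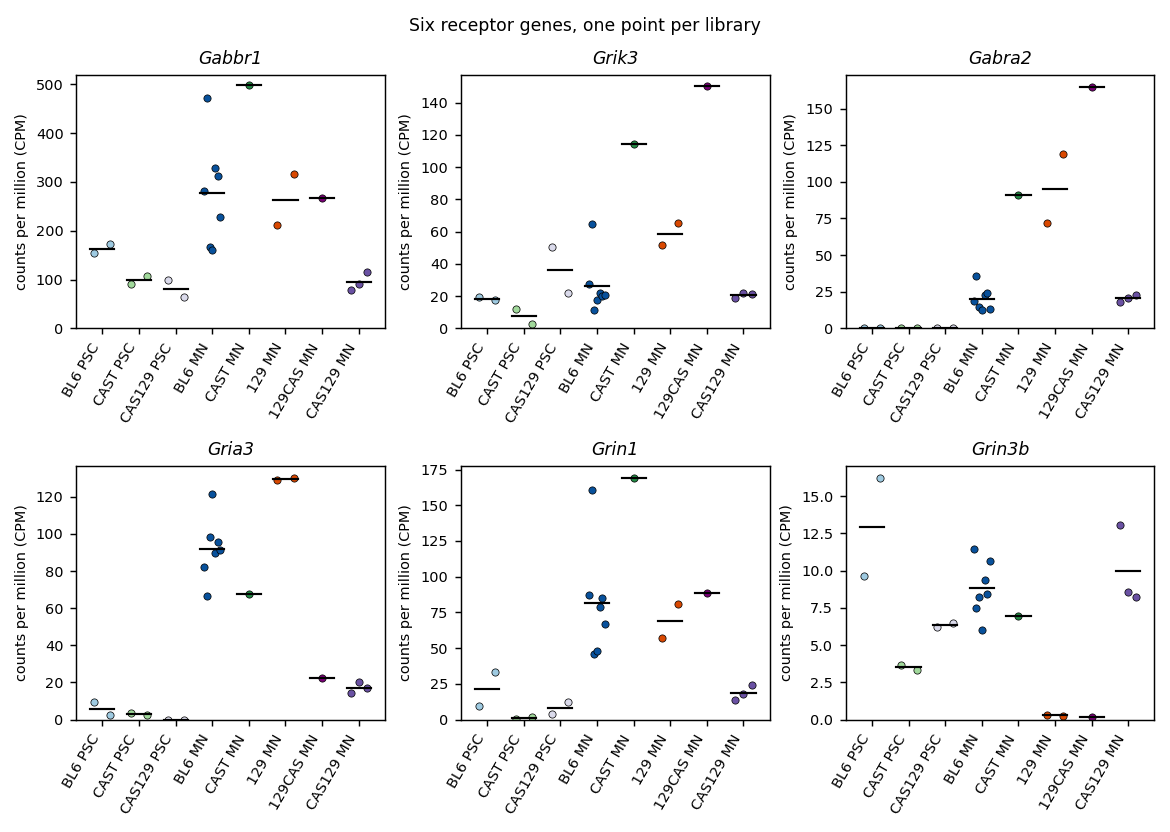
CPM of 6 receptor genes in each of the 20 libraries, by cell type and genotype. Points are libraries and bars are group means. Gabra2 is higher in CAST, 129 and 129CAS MN than in all 7 BL6 MN libraries, Gria3 is low in all 4 hybrid MN libraries, and Grin3b is near 0 in 129 and 129CAS MN.

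In 129 MN, Grin3a, an NMDA subunit that lowers calcium entry, was higher by 1.34 (SE 0.37, adjusted p = 0.012), at 49.7 and 75 CPM against 12.1, 19.8 and 46.1 CPM (lowest, median and highest) in BL6 MN, and Grm8 was higher by 1.27 (SE 0.37, adjusted p = 0.016). Both calls were lost without 129 MN replicate 2. Glra3 was lower by -2.23 (SE 0.70, adjusted p = 0.024), at 3.60 and 4.33 CPM, a call that was lost without either 129 replicate. The summed interneuron markers were 68.5 and 88.6 CPM in 129 MN against 71.7 to 540 CPM in BL6 MN, and 4 of 8 were lower. Of the motor neuron markers 3 of 8 were lower, with sums of 517 and 728 CPM in 129 against 612 to 1852 CPM in BL6 MN, and of the mesenchyme markers 5 of 9, with sums of 6497 and 10538 CPM against 14838 to 33895 CPM. Of all genes tested 18.1% were lower in 129 MN. The part of these markers in the differences was not tested.

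Grin3b (ENSMUSG00000035745, GRCm38 chr10:79970715-79977190, plus strand) had the largest difference in 129 MN. It stood at 0.281 and 0.272 CPM in 129 and 0.150 CPM in 129CAS MN, against 6.04, 8.41 and 11.5 CPM (lowest, median and highest) in BL6, 6.99 CPM in CAST and 13.1, 8.54 and 8.25 CPM in CAS129 MN. The log2 fold change, 129 against BL6, was -4.98 (SE 0.39, adjusted p = 5.34e-07). Of its exonic bases 32.1% overlap exons of Tmem259 on the opposite strand, whose levels were 147 CPM in BL6, 141 CPM in CAST, 107 CPM in 129, 103 CPM in 129CAS and 134 CPM in CAS129 MN. Whether counting used strand is not stated, so reads of the 2 genes cannot be told apart, and the value of Grin3b is uncertain. The libraries low in Grin3b are the 3 deepest. In them Gm14329, which overlaps Grin2b on the opposite strand, was at 0 CPM, against 1.16 CPM in BL6 MN. It stood at 0.563 CPM in CAST and 0.165 CPM in CAS129 MN. Whether strand was handled differently between libraries was not tested. In all, 13 members overlap an exon on the opposite strand; among the 26 testable members that do not, 3 were higher and 1 lower in 129.

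In the single CAST MN library, besides Gabra2, 2 genes were called higher, with an SE that comes from the spread of the other groups: Grik3, by 2.07 (SE 0.53, adjusted p = 0.023), and Gria4, by 1.61 (SE 0.45, adjusted p = 0.036). Grik3 stood at 114 CPM in CAST and 150 CPM in 129CAS, against 11.3, 20.9 and 64.8 CPM (lowest, median and highest) in BL6 MN. Gria4 stood at 110 CPM against at most 69.6 CPM in BL6 MN, and its call was lost without BL6 MN replicates 1, 5, 6 or 7.

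**Figure D5:**
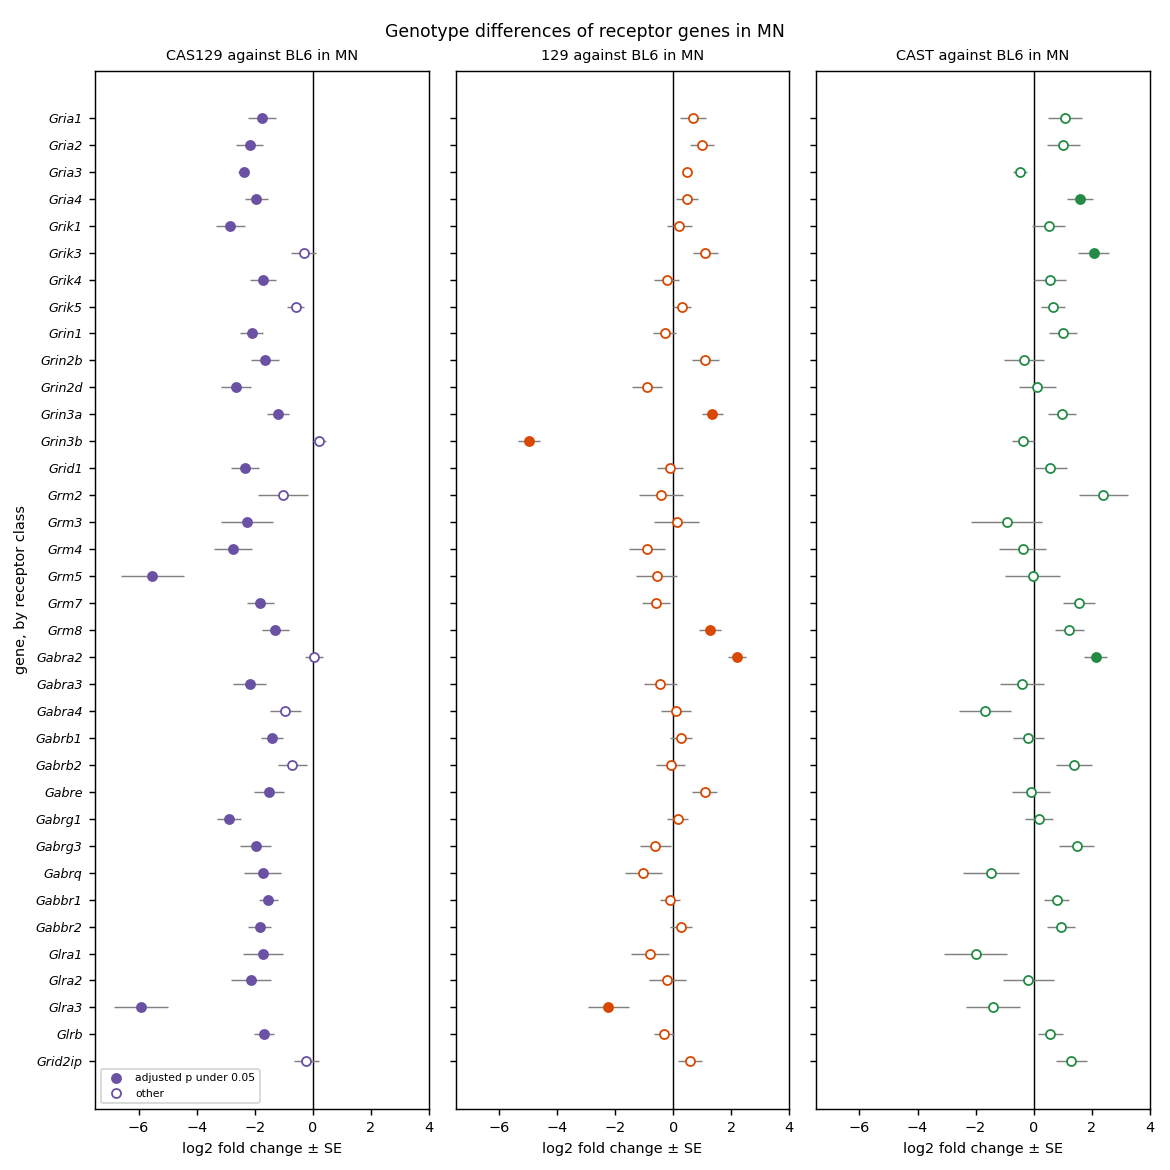
Log2 fold change ± SE of the 36 testable receptor genes against BL6 in MN, for CAS129 (left), 129 (middle) and CAST (right). Filled points passed the test. In CAS129, 28 genes lie left of 0 and pass, and Gabra2 passes in 129 and CAST.

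The hybrids whose names give the strains in opposite order could only be set side by side, with 1 and 3 libraries. Gabbr2 stood at 186 CPM in 129CAS and at 19.0, 29.3 and 27.5 CPM in CAS129 MN, Gria2 at 80.3 CPM and at 8.51, 8.37 and 13.4 CPM, and Grin1 at 88.9 CPM and at 13.4, 18.1 and 24.4 CPM. The single 129CAS library was above all CAS129 libraries in these 3 genes, and its neuron marker sum was 2270 CPM, against 539 to 691 CPM in CAS129 MN. These 3 are examples. The share of all genes that lay above in this way was not counted, so they are not set apart from other genes. The 129CAS library lay within the CAS129 range for Grin2d and below it for Grin3b, as given above.

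Within BL6 MN the 7 libraries were uneven. Replicate 2 was the highest for 31 of the 35 genes with a mean of at least 1 CPM, and its neuron marker sum with Map2 (4488 CPM) was also the highest, while replicates 3 and 4 were the lowest for 16 and 14 genes and had sums of 1508 and 1497 CPM. How many of all genes were highest or lowest in these replicates was not counted, so the counts do not set receptor genes apart. The coefficient of variation over the 7 libraries ran from 18.3% for Gria3 to 85.0% for Grm3. Gria3 went against the others: it was lowest in replicate 2, at 66.4 CPM, and highest in replicates 4 and 3, at 122 and 98.2 CPM.

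Between PSC genotypes the shares of receptor genes called were near those of all genes. Of 21 testable genes 1 was higher and 2 lower in CAST than in BL6 (all genes 5.74% and 4.81%, 10.5% in all). Grm2 stood at 5.17 and 10.5 CPM in CAST and 0.581 and 0.894 CPM in BL6 PSC (log2 3.52, SE 0.67, adjusted p = 0.015), Grin1 was lower by -4.57 (SE 1.05, adjusted p = 0.029) and Grik5, at 12.6 and 16.8 CPM against 41.1 and 47.4 CPM, by -1.46 (SE 0.36, adjusted p = 0.037). None of the 3 passed without BL6 PSC replicate 2 or either CAST PSC replicate. In CAS129 PSC 3 genes were higher and 1 lower (8.72% and 17%, 25.8% in all). Grm2 was higher by 2.70 (SE 0.67), Gabrp by 2.48 (SE 0.59) and Glrb by 2.29 (SE 0.64, adjusted p = 0.031), and only Gria3 passed without BL6 PSC replicate 2 or CAS129 PSC replicate 2. Gria3 was at 0 counts in both CAS129 PSC libraries, and its mean of 5.95 CPM in BL6 PSC was at least 24.7-fold higher than the floor. The 2 BL6 libraries were unlike, at 9.67 and 2.23 CPM, and without BL6 PSC replicate 1 the bound was 9.28-fold. Gria3 was also low in the hybrid MN libraries, and whether its counts were lost in hybrid libraries was not tested.

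The partners of the receptors were read from 6 lists. Of all 15596 genes tested over the lines, 36.1% were higher in MN and 38.5% lower. Of 14 AMPA and kainate auxiliary genes 12 rose from PSC to MN, with Cacng4, a transmembrane AMPA regulatory protein, up by 5.11 (SE 0.42), Neto2, a kainate receptor auxiliary protein, by 4.05 (SE 0.31), Cacng5 by 6.19 (SE 0.73) and Shisa7, which binds GABAA receptors as well, by 1.66 (SE 0.40). Of 20 excitatory scaffold genes 13 rose and 2 fell: Dlg4, which encodes PSD-95, rose by 3.43 (SE 0.46), Dlgap4 by 0.94 (SE 0.15) and Homer3 by 0.41 (SE 0.15), while Dlgap3 fell by 0.96 (SE 0.32) and Pick1, named here because it is the other gene that fell, by 1.23 (SE 0.20). Of 9 inhibitory scaffold genes 8 rose, with Gabarap by 1.64 (SE 0.14), Nlgn2 by 2.04 (SE 0.33), Igsf9b by 0.99 (SE 0.24) and Lhfpl4, an auxiliary protein of GABAA receptors, by 4.25 (SE 0.53). Of 4 GABAB auxiliary genes 3 rose, with Kctd12 by 3.44 (SE 0.39), Kctd8 by 8.13 (SE 0.55) and Kctd16 by 4.45 (SE 0.75).

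Of 10 testable genes of transmitter synthesis and transport 6 rose and 1 fell (all genes 36.1% and 38.5%). Slc17a6, the vesicular glutamate transporter VGLUT2, was at 0 counts in PSC and at 48.2 CPM in BL6 MN, Slc1a2 rose by 7.78 (SE 0.74), Slc32a1, the vesicular transporter of GABA and glycine, by 5.46 (SE 1.0) and Slc6a9, a glycine transporter, by 1.2 (SE 0.30). The gene that fell, named after its values were seen, was Slc17a7, the transporter VGLUT1, by 1.88 (SE 0.49). Of the chloride cotransporters that set the direction of GABAA and glycine currents, Slc12a5 (KCC2) rose by 4.26 (SE 0.45), from 2.60 CPM in PSC to 91.6 CPM in BL6 MN, and Slc12a2 (NKCC1), at 48.9 and 57.4 CPM, did not pass.

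In CAS129 against BL6 MN the same lists were mostly lower: 11 of 14 auxiliary genes, 15 of 20 excitatory scaffold genes, 8 of 9 inhibitory scaffold genes, 3 of 4 GABAB auxiliary genes and 8 of 11 transmitter genes, with 1 higher in each (Cpt1c, Pick1, Gabarap, Kctd12b and Slc17a7, in the order of the lists, named after their values were seen). Of all genes tested in that comparison 32.5% were lower and 27% higher. Dlg4 was lower by -1.18 (SE 0.17), Cacng4 by -1.41 (SE 0.42) and Nlgn2 by -1.15 (SE 0.26). The chloride cotransporters went opposite ways: Slc12a5 was lower by -2.09 (SE 0.58, adjusted p = 0.0074) and Slc12a2 higher by 1.05 (SE 0.11, adjusted p = 2.9e-06), at 116 CPM in CAS129 and 57.4 CPM in BL6 MN. Insyn1, an inhibitory synapse protein, was at 0 counts in all 6 hybrid libraries and at 86.2 CPM in BL6, 47.4 CPM in 129 and 66.4 CPM in CAST MN. Like Map2, it is thus 1 of the genes at 0 in every hybrid library, and it is counted among the 8 lower inhibitory scaffold genes. Clptm1, which retains GABAA receptors before assembly, stood at 16.1 CPM in CAS129 and 216 CPM in BL6 MN. Whether counts of Clptm1 were lost in the same way was not tested.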

How the data were processed

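Values are raw counts of reads per gene, deposited by the authors as a table with 28 columns. Of these, 20 matched the labels of 1 sample each and 8 were not used; 7 of the 27 samples had no matching column and were not analysed here. Reads were aligned with STAR to GRCm38 (mm10), per the submitters' processing notes. The sources used here do not give the counter, its annotation or its strand setting. Per the labels' protocols, RNA of PSC and MN was extracted with different kits, captured with poly-T beads and primed with random hexamers. GENCODE M21 on GRCm38 gave a name to 27031 of 27071 identifiers; 40 stayed without one.

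Depth ran from 4.5 to 44.57 M counts per library, and intervals or floors (3 counts) cover counting error only. CPM levels were TMM-scaled over 22964 genes with a count. Tests used edgeR 4.0.16 (R 4.3.3, limma 3.58.1), quasi-likelihood, 2-sided, keeping genes that reached 1 CPM in 2 or more of the libraries fitted, with Benjamini-Hochberg adjustment over all genes and a threshold of 0.05. MN against PSC over lines used genotype and cell type as terms; genotype contrasts used all MN or all PSC libraries, and contrasts within a line used all 20. Each SE was obtained from the log2 fold change and the root of its F statistic. Alternatives were DESeq2 1.42.0, RLE scaling, no filter, a replicate block, each replicate left out, and other length divisors for shares. Tables and figures used Python 3.11.15, pandas 2.3.3, numpy 2.4.6 and matplotlib 3.10.9.

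Members and lists were chosen with earlier results of these data known. Some genes that match the name patterns, and 1 gene of the pathway lists, are not reported here and were left out of all counts, sums, ranks and figures, though the tests were fitted and adjusted over every gene of the table. Values were to be given for the 14 analysed members with the highest CPM per kb in MN, the 5 highest in PSC and up to 4 called members with the smallest p of each genotype comparison, and for up to 4 called genes with the highest mean CPM of each of 6 pathway lists; other members are given to complete their class. Replicates were compared by chi-square: the lowest value over 28 pairs was 2.96 per degree of freedom (BL6 MN replicates 5 and 6), so none was counted as a repeat. On simulated data 100 genes were changed per size. For MN against PSC over lines (15596 genes) the test recovered 39% of changes of log2 1 and 75% of log2 2. It recovered 54% and 82% for CAS129 against BL6 MN (14837 genes), and 2% and 30% for CAST against BL6 PSC (13795 genes). False calls were 1.72%, 2.86% and 8.57% of all calls, in that order. Far more genes were called in the data (74.6% over the lines), so recovery there may differ.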

Additional observations from a re-analysis of the deposited data

Results flagged for a closer look

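BL6 MN replicate 2 stood far above the other 6 libraries of its group for 11 of 35 receptor genes, by a gap larger than Dixon's critical value for the gap as a share of the group's range. Its CPM were 193 for Gabbr2, 68.1 for Gabrb1, 13.2 for Gabrb2, 15.9 for Gabrg1, 47.6 for Glra3 and 69.6 for Gria4. For Grik1 the value was 61.8 CPM, for Grik3 64.8, for Grik4 38.5, for Grin1 161 and for Grin2b 141 CPM. Chance marks about 1 in 20 groups in this way, and the 11 genes share the library. The share of all genes marked in this way was not counted, so the 11 do not set receptor genes apart. The neuron marker sum of replicate 2, 4488 CPM, was also the highest of the 7, and the part of this in the gene values was not tested.

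CAS129 and BL6 differed in their change from PSC to MN, by the test of the difference itself, for Glrb (log2 difference -3.80), Gria3 (6.96) and Grm2 (-3.58). These are 3 of 40 testable members, where 18.2% of all genes passed. The call on Gria3 was lost without either CAS129 PSC replicate. That on Grm2 was lost on leaving out any of several single libraries, among them each BL6 PSC and each CAS129 PSC replicate. Gria3 was at 0 counts in CAS129 PSC, so the size of its difference depends on the treatment of zeros. Whether its counts were lost in hybrid libraries was not tested.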

How the results depend on the processing

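Receptor gene calls from MN against PSC moved little: 32 of 34 calls over the lines, 27 of 34 in BL6, 28 of 31 in CAST and 19 of 22 in CAS129 held under every alternative other than those added after seeing the data. Of the 28 calls of CAS129 against BL6 MN 21 held, of the 5 of 129 MN 2 (Gabra2 and Grin3b), of the 3 of CAST MN 1 (Gabra2), and of the 3 and 4 of CAST and CAS129 PSC 0 and 1 (Gria3). No value reversed. Leaving out each replicate gave 22 to 29 members for CAS129 against BL6 MN (7439 to 9120 of all genes), 2 to 12 for 129 (2800 to 6324), 2 to 17 for CAST MN (1550 to 3805), 0 to 4 for CAST PSC (226 to 2105), 1 to 4 for CAS129 PSC (2132 to 3657) and 1 to 4 for the difference of changes (1409 to 3664). Without CAS129 MN replicates 1 and 2 together, an alternative chosen after seeing the data, 7 members and 4767 genes were called, with 1 library left. DESeq2 called 7 members for the difference of changes, 1 higher and 6 lower, and for CAST PSC 5 members and 2222 genes. The share of all genes that DESeq2 called for the difference is not given here, so the 7 are not read against it. With no filter CAST PSC had 6 members and 2682 genes. Same-numbered libraries did not all deviate together (correlations of deviations from -0.114 to 0.456), though in PSC they did for BL6 and CAST (0.328) and CAST and CAS129 (0.353), but less for BL6 and CAS129 (0.0304). The labels do not say that a number marks a shared culture or day. With a replicate block the calls on Grik3 and Gria4 in CAST MN and on Grin3a and Grm8 in 129 MN were lost. The difference of changes then had 1887 genes and CAST MN 1 member and 766 genes. CAST PSC had 5 members, again without a share of all genes given here. Shares moved with the length divisor. With no division by length Gria2 held 21.2%, Grik5 55.7%, Grin2b 26.2%, Grin2d 18.0% and Glra2 15.5% in BL6 MN, and Gria4 31.3% in 129CAS MN. Per kb of the longest coding transcript, added after seeing the data, Grin1 held 55.4%, Grin2b 6.60%, Grin2d 19.9% and Glrb 62.2% in BL6 MN, and Gria4 37.4% in 129CAS MN. The cause of changes other than fewer libraries was not tested. At these depths members under about 1 CPM rest on few counts.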
